A study of Bos grunniens with 18 samples.

Results

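The transcripts described here are those of a small set of glucose, fructose and lactate transporters and their chaperones in the testis of the yak. The set is defined by gene symbol: the sugar transporters SLC2A1, SLC2A3, SLC2A5 and SLC2A8, the lactate transporters SLC16A1, SLC16A3 and SLC16A7, and the membrane chaperones BSG and EMB. In the deposited gene table these 9 symbols stand on 12 of 22183 identifiers, and 11 of the 12 passed the filter on low counts that left 16742 genes for testing. Testis tissue was taken at castration from 9 healthy male yaks of a single herd cooperative, 3 each at 6 months (Y6M), 18 months (Y18M) and 4 years (Y4Y), and each animal gave 1 library depleted of ribosomal RNA. No treatment other than age separates the groups, and the anaesthesia and surgery were shared by all. Ages follow the sample titles. Another label, not used here, gives infancy for the Y4Y samples, adolescence for Y6M and adulthood for Y18M. Animals that share a replicate number at different ages are not otherwise related in the labels.

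Sugars cross the plasma membrane of testicular cells through facilitative transporters of the SLC2 (GLUT) family, which differ in affinity and in the sugar they carry. In mammals, Sertoli cells take up glucose, turn much of it into lactate and release it, and spermatocytes and spermatids take lactate up as a preferred fuel. Lactate and pyruvate move with a proton through monocarboxylate transporters (MCTs) of the SLC16 family, which reach the cell surface only with an immunoglobulin-superfamily partner, basigin (BSG) or embigin (EMB). In the mouse, mature sperm depend on glycolysis for motility. Sperm also take up fructose, the main sugar of seminal plasma in ruminants. Values below come from whole tissue, in which fewer cells of a type and less RNA per cell cannot be told apart.

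Gene libraries held 22.95 to 33.12 M estimated counts. Levels over libraries are given as CPM, the counts per 1 M counts after TMM scaling, a level that depends on transcript length, and levels between genes as the authors' deposited FPKM, which is per length. Sertoli cell markers summed to 5012 to 5655 CPM at 6 months, 414.2 to 1297 at 18 months and 341.6 to 397.9 at 4 years. Most of that sum at 6 months was INHA (mean 4099 CPM) and AMH (884.1 CPM), while SOX9 went from a mean of 45.8 CPM to 26.9 and 17.5 CPM and CLDN11 from 8.56 CPM up to 288.7 and 202.4 CPM. Spermatid markers summed to 0.887 to 2.01, 112.2 to 1701 and 1794 to 2240 CPM at the same ages. Y18M replicate 2 stood apart from the other 18-month libraries, with the highest Sertoli sum of its age (1297 CPM) and the lowest spermatid sum (112.2 CPM). Y18M replicate 1 lay nearest to the 4-year libraries, with sums of 414.2 and 1701 CPM. Calls that change without either library are given with and without it.

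Between 6 months and the later ages the set split in both directions. The sugar transporters SLC2A3, SLC2A5 and SLC2A8, the chaperone EMB and a second SLC16A1 identifier were higher at both later ages, while SLC2A1, BSG, SLC16A7 and the first SLC16A1 identifier were lower. SLC16A3 was called lower at 4 years and not called at 18 months. Calls of SLC16A7 at both ages, of the first SLC16A1 identifier at 4 years and of BSG at 18 months depended on how libraries were scaled. Calls were made in edgeR at a Benjamini-Hochberg adjusted p under 0.05 over all genes tested. At 18 months against 6 months, 6 of the 11 tested identifiers were higher, 4 were lower and 1 was not called (median log2 fold change 2.59, against 0.02 over all genes). SLC2A5 and SLC16A1 each enter the medians given here by a pair of identifiers, and 2.59 is the value of the second SLC16A1 identifier. The medians against 6 months at both later ages rest on this double entry and do not show a shift of the set. With identifiers of 1 symbol summed, an alternative added after the values were seen, 8 of 9 were called at 18 months, 4 higher and 4 lower. The middle of the 9 values was then that of SLC16A3, not called, at -0.36. Of all genes, 59.9% were called in that comparison, 32.7% higher and 27.1% lower. At 4 years against 6 months, 6 were higher and 5 were lower (median 2.32, against -0.06 over all genes), beside 73.9% of all genes called, 36.7% higher and 37.2% lower. Both comparisons use the same 6-month libraries. Without Y18M replicate 2 the counts were 9 of 11 at 18 months and 10 of 11 at 4 years against 6 months, since SLC16A7 was no longer called. Other scalings left the 6 higher calls in place and gave fewer lower ones. At 18 months 2 were lower with library totals alone and 3 with RLE or DESeq2, and at 4 years 3 were lower with each of these. Apart from scaling, 3 were lower at 18 months with no filter on low counts, and 3 with only the 2 ages compared. The age groups did not overlap in CPM for 10 identifiers at 18 months against 6 months and for 11 at 4 years against 6 months, where 65.1% and 83.0% of all genes did not overlap. The panels of levels by age show each library.

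**Figure D1:**
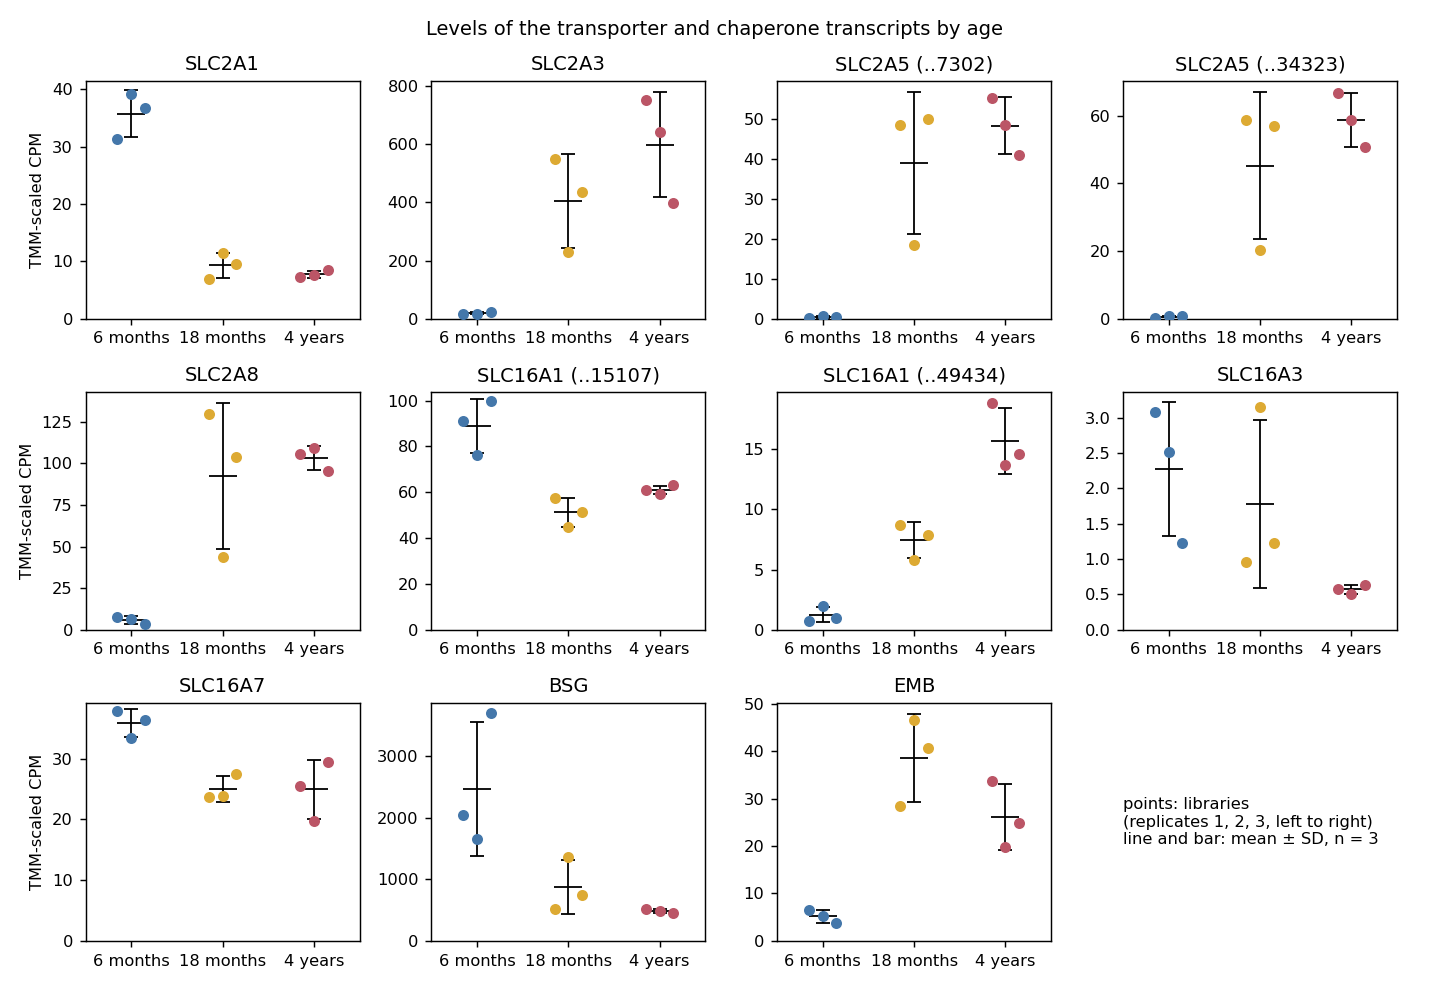
TMM-scaled CPM (vertical axes, linear, starting at 0) of the 11 tested identifiers in each library, by age; points are libraries and bars are the mean ± SD of 3 animals. SLC2A3 lies at 16.8 to 22.2 CPM at 6 months and at 229.5 CPM or more at both later ages, whereas SLC2A1 falls from at least 31.3 CPM to at most 11.4 CPM.

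SLC2A1 (ENSBTAG00000009617) encodes GLUT1, the widespread basal glucose transporter found on Sertoli cells, endothelium and, in the human, erythrocytes. SLC2A1 was the first of the sugar carriers to be examined. Its level was 31.3, 39.2 and 36.7 CPM in the 6-month libraries, 6.93, 11.4 and 9.47 CPM in the 18-month libraries and 7.18, 7.55 and 8.43 CPM in the 4-year libraries. All 6-month libraries lay above all later ones, and the 18-month and 4-year values overlapped. Its estimated counts were not whole in Y18M replicate 1 (209.2) and at 4 years (211.4, 256.2 and 212.7), so these levels are less certain. SLC2A1 fell 3.85-fold from 6 to 18 months (log2 fold change -1.95 ± 0.23 SE, adjusted p = 0.000204 by edgeR). From 6 months to 4 years it fell 4.63-fold (-2.21 ± 0.23, adjusted p = 8e-05).

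Markers of Sertoli cells and endothelium mostly fell with SLC2A1. Most of those of erythrocytes were close to absent at every age, so they could not show a fall. Of the 8 Sertoli markers, 6 were lower and 1 was higher at both 18 months and 4 years than at 6 months. Among all genes, 27.1% were lower at 18 months and 37.2% at 4 years. All 5 endothelial markers were lower at both ages, and their sum went from 302.0 to 304.9 CPM at 6 months to 63.8 to 125.2 CPM at 18 months and 59.6 to 67.7 CPM at 4 years. In Y18M replicate 2, the 18-month library with the highest SLC2A1 level, the endothelial sum was also the highest of its age. So were the Sertoli, Leydig, peritubular, fibroblast, macrophage and spermatogonial sums. Of 6 identifiers of the red cell haemoglobin genes, 4 were at 0 in every library, and the others held 37, 77 and 63 counts (HBA) and 9, 0 and 9 counts (HBB) over the 3 libraries of 6 months, 18 months and 4 years. Of the other genes on the erythrocyte list, SLC4A1 and ALAS2 held at most 6 counts at any age, whereas HEMGN held 3, 3365 and 9260 counts. Like the spermatid sum, HEMGN was lowest among the later libraries in Y18M replicate 2 (3.87 CPM). The part of Sertoli and endothelial cell numbers in the SLC2A1 difference was not tested.

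SLC2A3 (ENSBTAG00000004556) encodes GLUT3, a glucose transporter of high affinity known from neurons and germ cells. The 6-month libraries held 17.7, 16.8 and 22.2 CPM, the 18-month libraries 548.3, 229.5 and 437.1 CPM, and the 4-year libraries 753, 644 and 399.4 CPM. The 6-month libraries were far below all others, and among the later libraries Y18M replicate 2 was the lowest. SLC2A3 rose 21.4-fold at 18 months (4.42 ± 0.4, adjusted p = 7.38e-05 by edgeR) and 31.7-fold at 4 years (4.98 ± 0.41, adjusted p = 3.91e-05). Without Y18M replicate 2 the 18-month log2 fold change was 4.82, and those of the sugar transporters below were 7.23 and 6.81 for the SLC2A5 identifiers and 4.39 for SLC2A8. A second identifier with the same symbol (ENSBTAG00000030416) held 1 count in all, in Y6M replicate 1, and was not tested.

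The log2 ratio of SLC2A3 to SLC2A1 counts in a library, which no scaling of libraries can change, was -0.82, -1.22 and -0.72 at 6 months. It was 6.3, 4.33 and 5.53 at 18 months and 6.71, 6.41 and 5.57 at 4 years. SLC2A1 thus gave more counts than SLC2A3 in each 6-month library and fewer in each later one. Y18M replicate 2 had the lowest ratio among the later libraries.

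SLC2A5 encodes GLUT5, the fructose transporter, which in the human is abundant in sperm. Its symbol stands on a pair of identifiers with fractional counts, so reads were split between them and the levels of each are uncertain. ENSBTAG00000007302 was at 0.127, 0.607 and 0.32 CPM at 6 months, 48.3, 18.3 and 49.8 CPM at 18 months and 55.3, 48.4 and 41.0 CPM at 4 years. ENSBTAG00000034323 was at 0.338, 0.65 and 0.686 CPM, then at 58.7, 20.2 and 56.8 CPM, and then at 66.7, 58.8 and 50.7 CPM. Both were close to absent at 6 months and present in every later library, with Y18M replicate 2 again the lowest of these.

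The first SLC2A5 identifier rose by 6.77 ± 0.59 on the log2 scale at 18 months (adjusted p = 6.83e-05 by edgeR) and by 7.09 ± 0.6 at 4 years (4.09e-05). The second rose by 6.33 ± 0.51 (5.64e-05) and 6.71 ± 0.51 (3.75e-05). With both identifiers summed, an alternative added after the values were seen, the log2 fold changes were 6.53 and 6.88. At 6 months these rest on 2.95 to 15.5 estimated counts per library, and without Y6M replicate 2 the first identifier was at 7.43 at 18 months and 7.74 at 4 years.

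SLC2A8 (ENSBTAG00000006957) encodes GLUT8, a glucose transporter held mostly on internal membranes and known in the mouse from the acrosomal region of spermatids. Its level was 7.98, 6.68 and 3.43 CPM at 6 months, 129.5, 44.0 and 103.7 CPM at 18 months and 105.5, 109.3 and 95.5 CPM at 4 years. Every later library exceeded the 6-month ones, and Y18M replicates 1 and 2 were the highest and the lowest of the later libraries. SLC2A8 rose 15.3-fold at 18 months (3.94 ± 0.45, adjusted p = 0.00019 by edgeR) and 17.1-fold at 4 years (4.1 ± 0.46, adjusted p = 0.000104).

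All 6 spermatocyte markers and all 6 spermatid markers were higher at 18 months and at 4 years than at 6 months, along with SLC2A3, SLC2A5 and SLC2A8. Of all genes, 32.7% and 36.7% were higher at these ages. The 6 spermatogonial markers were mixed, with 2 higher and 2 lower at 18 months and 1 higher and 2 lower at 4 years. The spermatocyte sum was 4.82 to 8.93 CPM at 6 months, 243.2 to 576.6 at 18 months and 550.6 to 629.3 at 4 years. It was lowest among the later libraries in Y18M replicate 2, as were SLC2A3, SLC2A5 and SLC2A8. The part of germ cell numbers in these differences was not tested.

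**Figure D2:**
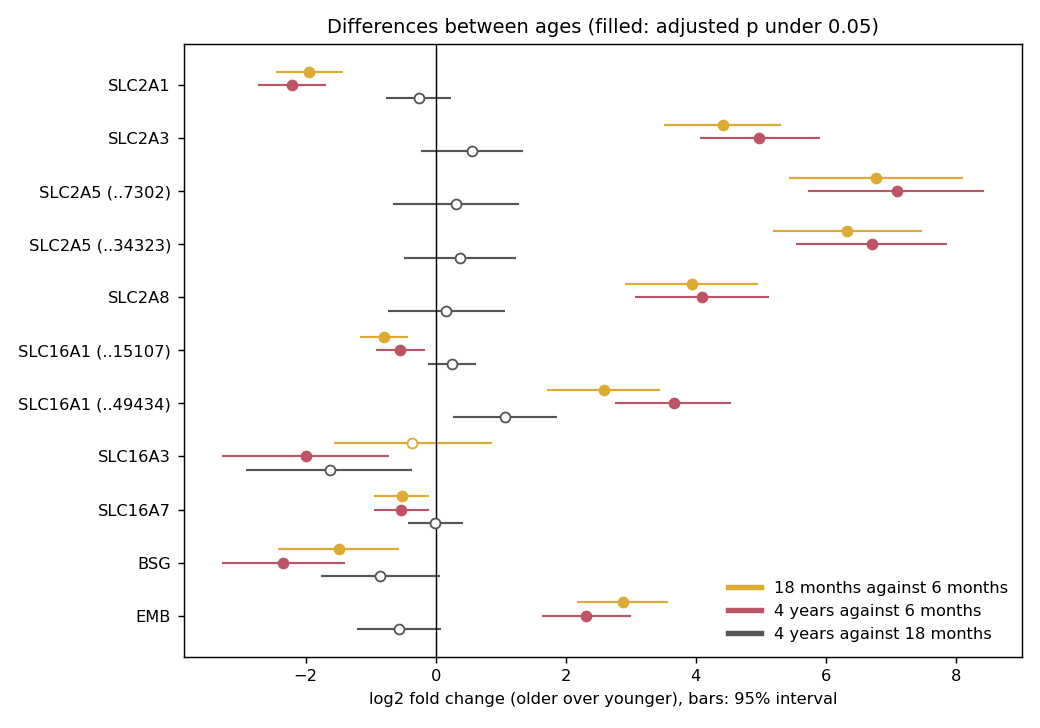
Log2 fold changes (horizontal axis, older over younger) of the 11 tested identifiers in the 3 comparisons, with 95% intervals from edgeR; filled points passed an adjusted p of 0.05. Both identifiers of SLC2A5 lie above 6 against 6 months, and no identifier is filled for 4 years against 18 months.

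Compared per length, the sugar transporter pool changed in size and make-up. The FPKM of the 6 SLC2A identifiers summed to 15.7 to 18.0 at 6 months, 107.7 to 245.2 at 18 months and 197.9 to 283.3 at 4 years. SLC2A1 gave 57.3% to 64.3% of that sum at 6 months, 1.15% to 4.22% at 18 months and 1.07% to 1.95% at 4 years. The share of SLC2A3 was 18.4% to 25.8%, then 51.1% to 56.5%, and then 51.6% to 62.7%. SLC2A8 gave 8.1% to 19.9% at 6 months and 17.9% to 25.9% at the later ages. Each SLC2A5 identifier gave at most 1.44% at 6 months and between 8.59% and 11.5% at the later ages. SLC2A1 was therefore the leading SLC2A transcript of the 4 symbols at 6 months, and SLC2A3 was at both later ages, in every library.

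The lactate transporter identifiers did not share a direction. SLC16A1 encodes MCT1, a proton-coupled transporter of lactate and pyruvate found in most tissues, and its symbol also stands on a pair of identifiers. ENSBTAG00000015107 was at 90.9, 76.4 and 99.8 CPM at 6 months, 57.5, 44.8 and 51.4 CPM at 18 months and 60.8, 59.3 and 63.0 CPM at 4 years. All 6-month values lay above all later values, and the 18-month values lay below the 4-year ones.

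This identifier fell 1.74-fold at 18 months (-0.8 ± 0.16, adjusted p = 0.00307 by edgeR). At 4 years it was 1.46-fold lower than at 6 months (-0.55 ± 0.16, adjusted p = 0.0142). The 4-year call was lost when libraries were scaled by their totals alone (-0.25, adjusted p = 0.167), by RLE (-0.37, 0.0893) or with DESeq2 (-0.37, 0.0758). It was also lost without Y6M replicate 3 (-0.45, 0.062) or Y4Y replicate 2 (-0.52, 0.0535).

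ENSBTAG00000049434 carries the same symbol and a description as an MCT1 protein in the deposited table. Its circRNAs lie on chromosome 3 from 30515642 to 30525284, and those of the first identifier from 30398513 to 30412016 on the same strand, in the coordinates of the deposited circRNA table. Whether it is a separate gene, a copy or part of the same gene was not settled here. Its level was 0.76, 1.95 and 1.01 CPM at 6 months, 8.69, 5.78 and 7.91 CPM at 18 months and 18.8, 13.7 and 14.6 CPM at 4 years. The 3 ages did not overlap, and the order was from 6 months up to 4 years.

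This second identifier rose 6.0-fold at 18 months (2.59 ± 0.38, adjusted p = 0.000573 by edgeR) and 12.6-fold at 4 years (3.66 ± 0.4, adjusted p = 9.3e-05), opposite to the first. With both identifiers summed, an alternative added after the values were seen, SLC16A1 fell by 0.62 on the log2 scale at 18 months (adjusted p = 0.0107) and the 4-year difference was not called (-0.23, adjusted p = 0.223).

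SLC16A3 (ENSBTAG00000017461) encodes MCT4, the lactate exporter of glycolytic cells, described in Sertoli cells and in activated macrophages. It was at 3.08, 2.51 and 1.23 CPM at 6 months, 0.962, 3.15 and 1.23 CPM at 18 months and 0.579, 0.501 and 0.633 CPM at 4 years, on 16 to 92 estimated counts per library. The 6-month and 18-month values overlapped, and all 4-year values lay below them. At 18 months the difference was not called (-0.36 ± 0.54, 95% interval -1.57 to 0.86, adjusted p = 0.585 by edgeR), and with libraries scaled by their totals alone its sign turned (0.06). Without Y18M replicate 2 it was -0.93 (adjusted p = 0.116), and without each other library it lay between -0.65 and -0.06, uncalled throughout. From 6 months to 4 years SLC16A3 fell 3.98-fold (-1.99 ± 0.57, adjusted p = 0.011).

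Macrophage markers summed to 307 to 517.1 CPM at 6 months, 190.2 to 445.9 at 18 months and 125.9 to 163.6 at 4 years. Among the 18-month libraries their sum and the SLC16A3 level were both highest in Y18M replicate 2. The Sertoli, Leydig, peritubular, fibroblast, endothelial and spermatogonial sums were highest in that library too. Of 10 tested macrophage identifiers, 5 were higher and 4 lower at 4 years than at 6 months. C1QA and C1QB, which made up most of the sum at 6 months, went from 15059 to 3752 and from 11707 to 2641 counts, whereas CD14 went from 266 to 2781 counts and 4 CD163 identifiers were higher. The part of Sertoli cell or macrophage numbers in the SLC16A3 difference was not tested.

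SLC16A7 (ENSBTAG00000021287) encodes MCT2, a lactate and pyruvate importer of high affinity known from germ cells and sperm of rodents and the human. It was at 37.9, 33.4 and 36.3 CPM at 6 months, 23.6, 23.9 and 27.5 CPM at 18 months and 25.5, 19.7 and 29.5 CPM at 4 years. The 6-month values lay above all others, with 18 months and 4 years overlapping. SLC16A7 was 1.43-fold lower at 18 months (-0.52 ± 0.19, adjusted p = 0.0379 by edgeR) and 1.44-fold lower at 4 years (-0.53 ± 0.19, adjusted p = 0.0296).

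These SLC16A7 calls depended on the scaling and on single libraries. With libraries scaled by their totals alone the log2 differences were -0.12 (adjusted p = 0.648) and -0.23 (0.347), and DESeq2 gave -0.42 (0.0601) and -0.35 (0.104). In the authors' FPKM, SLC16A7 overlapped between the ages, at 11.5 to 12.7, 10.5 to 12.1 and 7.99 to 13.3. The 18-month call was also lost when any single 6-month or 18-month library or Y4Y replicate 1 was left out, at -0.37 to -0.59. The 4-year call was lost without Y6M replicate 1 or 3, Y18M replicate 2 or Y4Y replicate 1 or 2, at -0.38 to -0.54.

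The log2 ratio of SLC16A7 to SLC16A1 (ENSBTAG00000015107) counts stayed within -1.46 to -1.19 at 6 months, -1.28 to -0.9 at 18 months and -1.59 to -1.09 at 4 years. These ranges overlapped. The ratio of SLC16A3 to the same SLC16A1 identifier was -6.34 to -4.88, -5.9 to -3.83 and -6.89 to -6.64, so only the 4-year range lay apart.

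The summed FPKM of the 4 SLC16A identifiers was 32.1 to 36.3 at 6 months, 29.2 to 31.9 at 18 months and 29.7 to 38.2 at 4 years. In contrast to the sugar carriers, the 6-month and 4-year ranges of this sum overlapped. That overlap holds for FPKM, which carries no TMM scaling, and does not show a steady pool. In CPM the first SLC16A1 identifier was at 76.4 or more at 6 months and at most 63.0 at 4 years. SLC16A7 was at 33.4 CPM or more and then at most 29.5 CPM. SLC16A3 also lay lower at 4 years, and the second SLC16A1 identifier lay higher. The first SLC16A1 identifier gave 60% to 65.5%, 51.1% to 55.9% and 50.7% to 59% of it, and SLC16A7 gave 26.9% to 37.9% over all libraries. The second SLC16A1 identifier gave 0.504% to 1.52%, 6.23% to 8.77% and 12.5% to 19.1%. SLC16A3 never gave more than 4.94%.

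**Figure D3:**
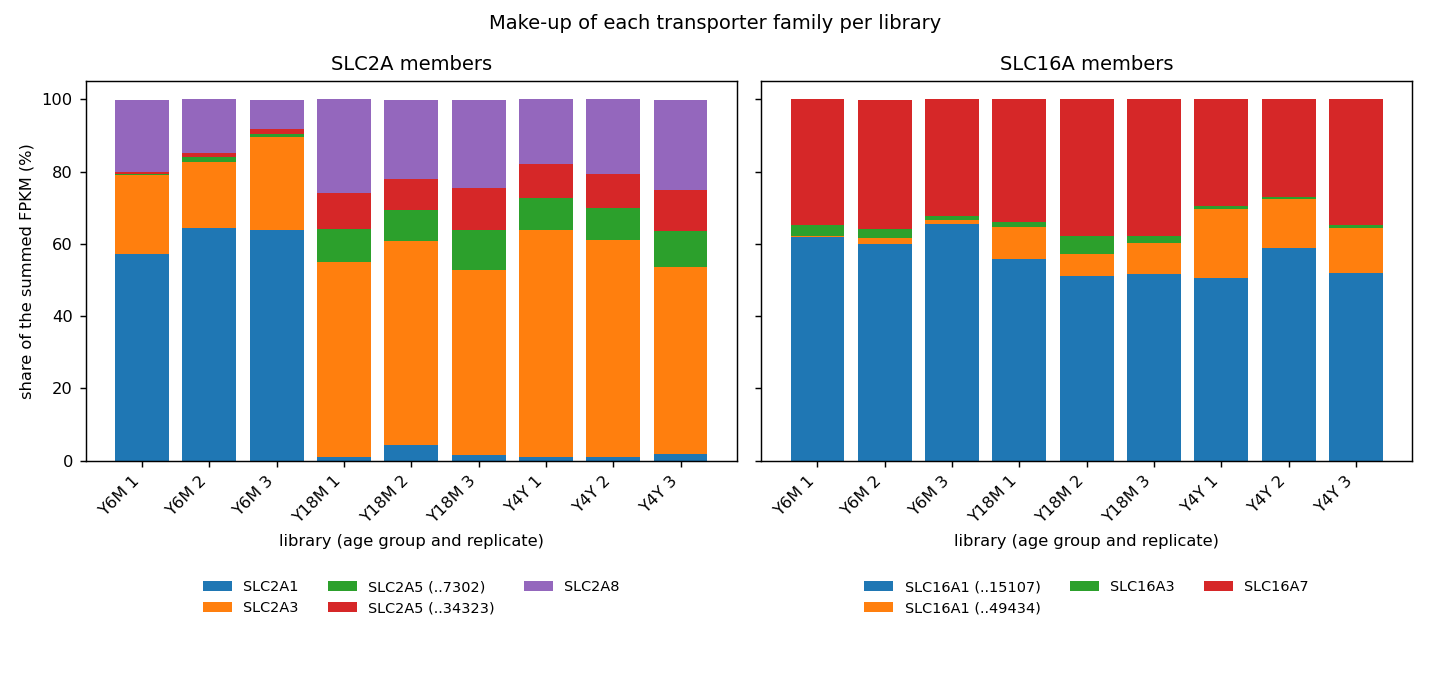
Share of the summed FPKM (vertical axis, percent) of each SLC2A identifier (left) and SLC16A identifier (right) in each library, as stacked bars; an SLC2A3 identifier with 1 count in all is not drawn. SLC2A1 takes 57.3% or more of the left bars at 6 months and at most 4.22% afterwards, while SLC16A1 (ENSBTAG00000015107) and SLC16A7 keep most of every right bar.

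BSG (ENSBTAG00000016648) encodes basigin, the partner that carries MCT1 and MCT4 to the cell surface and whose loss in mice arrests spermatogenesis. It was at 2039, 1655 and 3696 CPM at 6 months, 524.6, 1364 and 739.8 CPM at 18 months and 520.7, 493.4 and 445.6 CPM at 4 years. The ages did not overlap in CPM, whereas in the authors' FPKM 6 months (829.5 to 1732) and 18 months (323.2 to 924.2) did. Y6M replicate 3 was far above the other 6-month libraries, and Y18M replicate 2 lay closest to the 6-month range.

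BSG fell 2.81-fold at 18 months (-1.49 ± 0.41, adjusted p = 0.0121 by edgeR) and 5.06-fold at 4 years (-2.34 ± 0.42, adjusted p = 0.000996). With libraries scaled by their totals alone the 18-month difference was not called (-1.04, adjusted p = 0.0547), and without Y18M replicate 2 it was -1.84 (adjusted p = 0.00089). Per length BSG was the most abundant transcript of the set at every age, with a mean of 1186 ± 480 FPKM at 6 months, 578.3 ± 310.7 at 18 months and 301.7 ± 11.5 at 4 years (SD, n = 3). Its mean was above that of 99.4%, 99.4% and 98.6% of the genes tested at the 3 ages. Among the 18-month libraries the Sertoli sum and BSG were both highest in Y18M replicate 2. Sums of Leydig (5856 CPM), peritubular, fibroblast, endothelial, macrophage and spermatogonial markers were also highest there. All 9 Leydig and all 4 interstitial fibroblast identifiers were lower at both later ages, beside 27.1% and 37.2% of all genes. The part of Sertoli or other somatic cell numbers in the BSG difference was not tested.

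EMB (ENSBTAG00000044010) encodes embigin, the partner described for MCT2. It was at 6.59, 5.29 and 3.84 CPM at 6 months, 28.4, 46.7 and 40.7 CPM at 18 months and 33.7, 19.8 and 24.9 CPM at 4 years. All later libraries exceeded the 6-month ones, and the highest was Y18M replicate 2, which was the lowest of the later libraries for SLC2A3, SLC2A5 and SLC2A8. EMB rose 7.36-fold at 18 months (2.88 ± 0.31, adjusted p = 0.000143 by edgeR) and 4.98-fold at 4 years (2.32 ± 0.31, adjusted p = 0.000206).

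The log2 ratio of EMB to BSG counts was -8.27, -8.29 and -9.91 at 6 months, -4.21, -4.87 and -4.18 at 18 months and -3.95, -4.64 and -4.16 at 4 years. It lay higher in all later libraries than in any 6-month one, and the later ages overlapped. Per length, EMB still made up only 0.0492% to 0.108% of the summed BSG and EMB FPKM at 6 months and 0.945% to 1.89% at the later ages.

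Ranked by mean FPKM, the transcripts at 6 months ran from BSG through SLC16A1 (ENSBTAG00000015107), SLC16A7, SLC2A1, SLC2A3 and SLC2A8 to the low levels of EMB, SLC16A3, the second SLC16A1 identifier and SLC2A5. SLC16A7 and SLC2A1 overlapped, at means of 11.9 and 10.2 FPKM, and so did each neighbouring pair among EMB, SLC16A3, the second SLC16A1 identifier and SLC2A5. At 18 months SLC2A3 (101.9 ± 36.9), SLC2A8 (47.2 ± 20.8) and the SLC2A5 identifiers (19.7 ± 9.04 and 18.7 ± 8.25) followed BSG, each overlapping its neighbour. SLC16A1 (16.2 ± 1.19), SLC16A7 (11.2 ± 0.811), EMB (6.71 ± 2.48), SLC2A1 (3.67 ± 0.865), the second SLC16A1 identifier (2.41 ± 0.514) and SLC16A3 (0.824 ± 0.545) came next, of which EMB overlapped SLC2A1.

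At 4 years the order was BSG, SLC2A3 (144.4 ± 38.6), SLC2A8 (51.0 ± 1.75), the SLC2A5 identifiers (24.6 ± 2.41 and 22.4 ± 2.46) and SLC16A1 (18.3 ± 1.32). SLC16A7 (10.5 ± 2.65), the second SLC16A1 identifier (5.12 ± 1.38), EMB (4.58 ± 1.6), SLC2A1 (3.25 ± 0.528) and SLC16A3 (0.252 ± 0.0246) followed. The SLC2A5 identifiers overlapped each other, and EMB overlapped both the second SLC16A1 identifier and SLC2A1. SLC2A3 and SLC2A8, which did not overlap at 4 years, were above 96.1% and 86.9% of the genes tested.

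Between 18 months and 4 years, 0 of the 11 identifiers were called by edgeR, 2 had an unadjusted p under 0.05, and DESeq2 called 1. Of all genes 0.00597% were called in this comparison. The groups did not overlap for 4 identifiers, beside 25.4% of all genes. The second SLC16A1 identifier was 2.1-fold higher at 4 years (1.07 ± 0.35, 95% interval 0.27 to 1.87, unadjusted p = 0.014, adjusted p = 0.174), and DESeq2 called it (1.14, adjusted p = 0.0379). It is also the only one of the set in the authors' deposited table of these ages, with a log2 ratio of 18 months over 4 years of -1.08 and an FDR of 0.0365. SLC16A3 was at -1.63 ± 0.56 (interval -2.91 to -0.36, unadjusted p = 0.0176, adjusted p = 0.182) and BSG at -0.85 ± 0.4 (interval -1.76 to 0.06, adjusted p = 0.253).

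For the sugar transporters the intervals of the 4-year against 18-month difference were -0.77 to 0.24 for SLC2A1, -0.22 to 1.34 for SLC2A3 and -0.74 to 1.07 for SLC2A8. Those of the SLC2A5 identifiers were -0.66 to 1.29 and -0.49 to 1.24. EMB lay at -0.56 (interval -1.21 to 0.09), SLC16A7 at -0.01 (-0.43 to 0.42) and the first SLC16A1 identifier at 0.25 (-0.12 to 0.62). The absence of calls therefore leaves changes of up to about these bounds possible.

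The comparison depended on Y18M replicate 1. Without it 3 identifiers were called in edgeR, the second SLC16A1 identifier (1.2, adjusted p = 0.0449), SLC16A3 (-1.93, 0.0304) and BSG (-1.11, 0.0472), and 33% of all genes were called. Without Y18M replicate 2 none was called, and the second SLC16A1 identifier, SLC16A3 and BSG were at 0.92, -0.93 and -0.37.

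The 18-month libraries did not hold the same place for every transcript. On a log2 scale set to 0 at the 6-month mean and to 1 at the 4-year mean, SLC2A3 lay at 0.98, 0.73 and 0.92 in Y18M replicates 1, 2 and 3. SLC2A8 lay at 1.08, 0.7 and 1, and SLC2A1 at 1.07, 0.74 and 0.87. BSG spread more widely, at 0.95, 0.34 and 0.73, and SLC16A3 lay at 0.61, -0.31 and 0.42. EMB lay beyond the 4-year mean in each, at 1.07, 1.38 and 1.29, and the first SLC16A1 identifier likewise, at 1.16, 1.83 and 1.46. Y18M replicate 2 was thus the nearest to 6 months for SLC2A1, SLC2A3, SLC2A5, SLC2A8, SLC16A3, BSG and the second SLC16A1 identifier, and the farthest from 6 months for EMB and the first SLC16A1 identifier.

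The authors' deposited tables, which list genes with a log2 ratio of group means of at least 1 in size, held 8 of the identifiers for 18 months against 6 months and 9 for 4 years against 6 months. In the authors' deposited table the log2 ratio of 18 months over 6 months was 4.83 for SLC2A3, 4.33 for SLC2A8, 2.87 for EMB, -1.47 for SLC2A1 and -1.04 for BSG. The first SLC16A1 identifier and SLC16A7 are in neither of these tables.

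By Pearson correlation of log2 CPM over the 9 libraries, the genes most like SLC2A3 were MPI (r = 0.9987), ACOT7 (0.9985) and RAB11FIP5 (0.9985). For SLC2A1 they were ELOVL6 (0.9985), HAPLN3 (0.9968) and PRSS53 (0.9966), and for SLC2A8 they were CCNB2 (0.999), ESPL1 (0.9984) and KCNK12 (0.9981). The SLC2A5 identifiers were most like SYCE1 (0.9992) and C25H16orf71 (0.9995). Such values were common, since 2642 of 16338 other genes with a symbol exceeded 0.95 with SLC2A3 and 1918 did with SLC2A1, and the libraries share the same 3 ages.

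On the lactate side the number of close matches varied widely. Only 10 genes exceeded 0.95 with SLC16A7, led by RPAP2 (r = 0.9665), BNIP2 (0.9612) and C1QTNF3 (0.9599), and 68 did with the first SLC16A1 identifier, led by SNRNP27 (0.986), HSP90B1 (0.9817) and HSPA13 (0.9813). The second SLC16A1 identifier had 1766, led by LEKR1 (0.9946), KIF6 (0.9925) and STRADA (0.9916). SLC16A3 had 104, led by MYO1F (0.9877), TRPM2 (0.9831) and PRR5L (0.9829). BSG had 1129 and was most like NHSL1 (0.9893), TAF7L (0.9888) and DDX42 (0.9885). EMB had 116 and was most like SCML1 (0.9895), RCCD1 (0.9887) and NOP9 (0.9844).

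Circular RNAs, formed when a downstream end of a transcript joins an upstream start, were recorded for 6 of the 12 identifiers. Their deposited types were annotated exons, exon and intron or, for some of SLC16A7, intronic. There were 26 of these circRNAs, with 118 back-splice reads in all over the 9 libraries and at most 17 for any 1 circRNA. None passed the filter that left 3877 circRNAs for testing, of which 5.26% were called at 18 months and 21.0% at 4 years against 6 months. With no filter, edgeR called 0 of the 26 in each comparison, none had an unadjusted p under 0.05, and the smallest was 0.069.

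EMB had the most circRNAs, 10 with 48 reads. Of these reads 9 came from 6-month, 39 from 18-month and 0 from 4-year libraries. By library they were 3, 6 and 0 reads, then 7, 12 and 20, and then none, while the EMB transcript levels of 18 months and 4 years overlapped. The count of 0 among 480820 circRNA reads at 4 years allows a share of up to 0.000624%, for counting error only. The EMB circRNA with most reads spans chromosome 20 from 28709043 to 28720116 and had 3, 4 and 4 reads at 18 months and none elsewhere. The next were a pair with 7 reads each, all at 18 months, from 28684313 to 28709739 and from 28709235 to 28720116.

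The first SLC16A1 identifier had 6 circRNAs with 2, 16 and 16 reads at the 3 ages, the commonest from 30398997 to 30400109 on chromosome 3 with 12 reads. The second had a pair of circRNAs with 4, 5 and 10 reads, of which the one from 30515642 to 30525284 held 17. SLC16A7 had 8 reads, all at 18 months, SLC2A3 had 4 at 18 months and 3 at 4 years, and BSG had 2, in Y18M replicate 2. No circRNA was recorded for SLC2A1, SLC2A5, SLC2A8 or SLC16A3.

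Genes of the same pathway were counted from 6 lists with 56 tested identifiers. At 18 months against 6 months 15 were higher and 16 lower, and at 4 years against 6 months 19 were higher and 22 lower, with medians of -0.17 and -0.31. Those calls are 31 and 41 of 56, beside the 59.9% and 73.9% of all genes given above. At 4 years against 18 months edgeR called 0, with 15 at an unadjusted p under 0.05, and DESeq2 called 4.

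Of 8 other facilitative sugar carriers tested, 2 were higher and 4 lower at 18 months, and 3 were higher and 3 lower at 4 years. SLC2A10, a carrier held on internal membranes, fell by 3.82 ± 0.45 on the log2 scale at 18 months (adjusted p = 0.000208 by edgeR). At 4 years SLC2A10 fell by 5.34 ± 0.5 (5.45e-05). SLC2A9, which carries urate, fell by 2.28 ± 0.47 and 2.85 ± 0.48. SLC2A11 rose by 2.56 ± 0.41 and 3.34 ± 0.42. Like the 4 SLC2A symbols of the set, these relatives included both risers and fallers.

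Among 4 tested sodium-coupled carriers, 1 was higher and 2 were lower at each later age. SLC5A1 (ENSBTAG00000023007), the sodium-glucose cotransporter of the gut, was at 0.254, 0.564 and 0.366 CPM at 6 months, 96.5, 35.8 and 98.5 CPM at 18 months and 100.4, 87.0 and 78.4 CPM at 4 years. It was close to absent at 6 months and lowest among the later libraries in Y18M replicate 2, as SLC2A5 was. SLC5A1 rose by 7.59 ± 0.52 (adjusted p = 4.61e-05 by edgeR) and 7.8 ± 0.52 (3.24e-05), though its symbol stands on more than 1 identifier. SLC5A8, a sodium-coupled carrier of lactate and short-chain fatty acids, fell by 2.81 ± 0.29 and 2.99 ± 0.29, and the inositol carrier SLC5A11 fell by 2.79 ± 0.38 and 2.6 ± 0.37.

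Of 9 tested relatives in the SLC16 family, 3 were higher and 3 lower at 18 months, and 2 were higher and 5 lower at 4 years. SLC16A10, which carries aromatic amino acids, fell by 2.08 ± 0.2 and 2.5 ± 0.2. SLC16A11 rose by 4.62 ± 0.98 and 5.04 ± 1. Neither is a main carrier of lactate.

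Of 14 tested identifiers for lactate and pyruvate handling, 4 were higher and 3 lower at 18 months, and 5 were higher and 3 lower at 4 years. LDHC, the lactate dehydrogenase of germ cells, was at 3.46, 3.95 and 3.2 CPM at 6 months, 537.1, 113.7 and 380.7 CPM at 18 months and 460, 522.2 and 472.4 CPM at 4 years. It rose by 6.6 ± 0.57 (adjusted p = 6.71e-05 by edgeR) and 7.1 ± 0.58 (3.93e-05). LDHA, the muscle-type subunit, rose by 2.65 ± 0.31 and 2.74 ± 0.31, and LDHB, the heart-type subunit, fell by 2.74 ± 0.31 and 3.49 ± 0.32, both with symbols on more than 1 identifier. PDHA1, a subunit of pyruvate dehydrogenase, fell by 1.73 ± 0.21 and 2.06 ± 0.21. The mitochondrial pyruvate carrier MPC1 was not called, at 0.44 and 0.36.

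Of 10 tested identifiers for sugar phosphorylation and the polyol route, which makes fructose from glucose by way of sorbitol, 3 were higher and 0 lower at 18 months, and 4 were higher and 3 lower at 4 years. SORD, which turns sorbitol into fructose, rose by 2.66 ± 0.36 and 3.14 ± 0.37. Aldose reductase, which makes the sorbitol, stands on 3 AKR1B1 identifiers, which were not called at 18 months (-0.27, -0.3 and -0.51) and fell at 4 years by 1.22, 1.17 and 1.53. The hexokinase HK2 rose by 1.14 ± 0.24 and 1.47 ± 0.25, and HKDC1 by 3.06 ± 0.96 and 3.29 ± 0.96.

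The last list held 11 genes that partner with these transporters or place them in membranes, of which 2 were higher and 4 lower at 18 months, and 4 were higher and 6 lower at 4 years. CA9, a carbonic anhydrase at the cell surface that buffers protons beside MCTs, rose by 7.73 ± 0.64 (adjusted p = 6.21e-05 by edgeR) and 8.11 ± 0.65 (3.81e-05), from 0.423 to 1.28 CPM at 6 months to 66.6 to 233.1 CPM at 18 months and 190.6 to 270.4 CPM at 4 years. The Rab GTPase-activating proteins TBC1D1 and TBC1D4, which hold back insulin-regulated glucose transporters in muscle and fat, went opposite ways. TBC1D1 rose by 2.1 ± 0.35 and 2.68 ± 0.35, and TBC1D4 fell by 1.42 ± 0.26 and 2.12 ± 0.27.

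**Figure D4:**
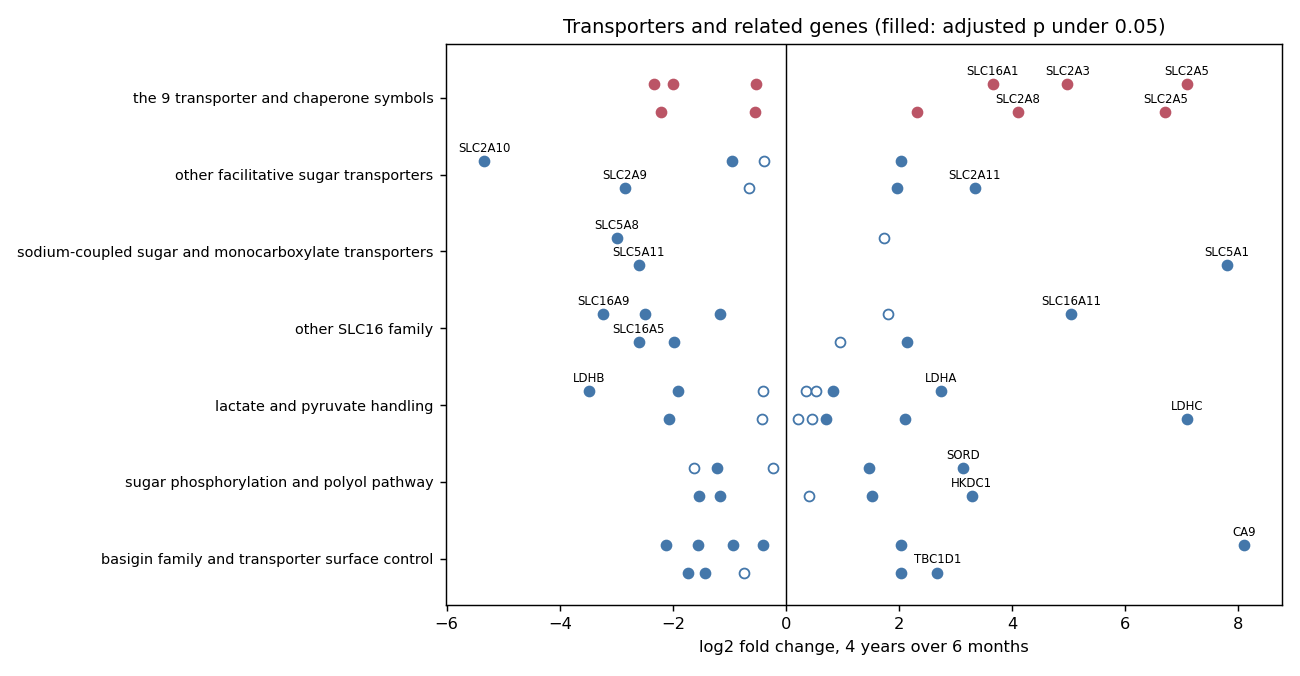
Log2 fold changes at 4 years over 6 months (horizontal axis) of the 11 tested identifiers of the set (top row) and of the 6 related lists; each point is 1 identifier, filled where the adjusted p from edgeR was under 0.05. CA9, SLC5A1, LDHC and SLC2A5 lie farthest to the right at 8.11, 7.8, 7.1 and 7.09, and SLC2A10 farthest to the left at -5.34.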

How the data were processed

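Whole testis RNA from 9 yaks, 3 per age, was depleted of ribosomal RNA and sequenced in pairs, per the labels' protocols. Per the submitters' processing notes, build UMD3.1 and the programs HISAT2 2.1.0, StringTie 1.3.4 and fastp 0.18.0 were used, with no role stated. How genes were counted is not given in the sources used here. Per library, the deposited gene table has estimated counts and FPKM, per the file headers. Values of 3137 genes, 4 of them in the set, are not whole (tolerance 1e-09), and counts were rounded. The deposited circRNA table holds the count of back-splice reads, and whether its coordinates follow the listed build was not settled. The authors' comparison tables give log2 ratios of group means and FDR-adjusted p-values, used only where named.

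Genes and circRNAs were each fitted in edgeR 4.0.16 (R 4.3.3) over 9 libraries, with filterByExpr (minimum count 10), TMM, glmQLFit and glmQLFTest, age as the only factor, 6 residual degrees of freedom and Benjamini-Hochberg adjustment over all features tested. The SE is the log2 fold change divided by the square root of F. Correlations used log2 CPM with a prior count of 2. The procedure was run on simulated counts in which few features changed, so that run says nothing of scaling where most genes differ. Symbols on more than 1 identifier (1423 in the table) leave identity uncertain. All 9 symbols were reported in every comparison, with the 3 most correlated genes each (part of these are printed for SLC2A5), up to 3 called genes with the smallest p per list and comparison, and the circRNAs with most reads. One gene that this rule names is not reported here. Members and lists were chosen with earlier results of these data known. Replicate numbers name different animals, and the p-values measure the spread between these animals. Alternatives covered scaling (library totals, RLE), no filter, DESeq2 1.42.0, 2 ages only, a replicate block, each library left out and identifiers of 1 symbol summed.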

Additional observations from a re-analysis of the deposited data

How the results depend on the processing

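Under the alternatives, 484 log2 fold changes of the set kept their direction and side of the threshold, 27 lost a call, 4 gained one and 7 changed sign. Lost calls were those of SLC16A7, SLC16A1 (ENSBTAG00000015107, 4 years against 6 months) and BSG with library totals alone, most of them given above. For 4 years against 18 months DESeq2 called 1 identifier, against 0 by edgeR, and 923 genes in all, against 1. Leaving out each library in turn gave 9 to 10 calls at 18 months and 9 to 11 at 4 years against 6 months, and 0 to 3 for 4 years against 18 months, with 5607 genes called without Y18M replicate 1. Changes of sign were all in uncalled differences. SLC16A3 at 18 months against 6 months was 0.06 with library totals. At 4 years against 18 months, SLC16A7 was 0.07 with RLE, 0.07 with DESeq2, 0.07 without Y18M replicate 3 and 0.14 without Y4Y replicate 2 (-0.14 to 0.14 over the libraries left out), and without Y18M replicate 2 SLC2A5 (ENSBTAG00000007302) was -0.02 and SLC2A8 -0.17, the low ends of ranges that reached 0.53 and 0.49 over the libraries left out. The cause was not tested.

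Library totals alone moved the median log2 fold change of all genes to 0.43, 0.23 and -0.13 in the 3 comparisons, and the higher share of calls at 18 months against 6 months from 54.7% to 72.6%. With the replicate block 10, 11 and 0 identifiers were called, the same counts as without it. Deviations from the age means correlated at -0.14 to 0.1 between same-numbered libraries and at -0.16 to 0.14 between the others. With 3 libraries per age these values cannot exclude a link between same-numbered libraries. The filter left no circRNA of the set to test, so those counts of 0 say nothing of change. Low counts limit SLC16A3 and, at 6 months, SLC2A5.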
